A study of Homo sapiens with 6 samples.

Results

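The aminoacyl-tRNA synthetase genes were followed after transfection of a miR21 precursor into SKOV3 cells, an established line from an ovarian cancer that the labels call high grade serous. The genes were chosen by symbol: 35 were listed, and each was read through its brightest probe set that the platform annotation assigns to a single gene. Of these, 32 had such a probe set, and all 32 lay above the signal filter that left 12206 of 19775 genes. They comprised 15 of 17 listed cytosolic genes, 15 of 16 listed mitochondrial genes, and GARS1 and KARS1, which serve both compartments. MARS1, QARS1 and TARS2 share each of their probe sets with a microRNA gene in the annotation and were not used. The control group (3 arrays) received a negative control precursor for 24 h, and the miR21 group (3 arrays) the miR21 precursor at 5 nM for 24 h. All arrays come from the same cell line grown in RPMI1640 with serum, and untransfected cells were not analysed here. The study's title names taxol resistance and APAF1. The precursor gives rise to miR-21, whose mature strand in RefSeq (GRCh38.p14) is shown because it is the agent that separates the groups, with the seed in capitals.
hsa-miR-21-5p: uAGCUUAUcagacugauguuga

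Aminoacyl-tRNA synthetases join each amino acid to its matching tRNA and so supply the ribosome. Human cells carry a cytosolic set and a separate mitochondrial set, all encoded in the nucleus; the mitochondrial genes mostly bear a symbol ending in 2. Many cytosolic synthetase genes are known targets of ATF4, the transcription factor of the amino acid response and the integrated stress response, which binds C/EBP-ATF composite sites. The mitochondrial enzymes serve the translation of the few proteins that the mitochondrial genome encodes.

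The arrays reported linear MAS5 signals, scaled so that the mean after trimming 2% at both ends is 500 on every array. The titles give each group's arrays the numbers 1 to 3, and same-numbered arrays resembled each other across groups, so differences are also given within each number. The median signal was 125 and 117 on the control and miR21 arrays of number 1, and between 55.2 and 61.9 on the other 4. The ratio of the 3′ to the 5′ probe set of ACTB, a measure of RNA integrity and labelling, was 1.79 with the control precursor and 1.96 with miR21 in number 1, 2.88 and 3.32 in number 2, and 1.29 and 1.36 in number 3. The ACTB ratio was thus higher with miR21 within each number. The same ratio of GAPDH did not follow it throughout, at 1.07 in both groups in number 1, 0.90 with the control precursor and 0.95 with miR21 in number 2, and 0.94 and 0.92 in number 3. The part of RNA integrity in the differences below was not tested. Of 10 epithelial and ovarian markers 8 lay above the filter, among them ERBB2, KRT8, EPCAM and PAX8, while WT1 and MUC16 lay below it. Of 10 markers of blood, endothelial and fibroblast cells 3 lay above it (PECAM1, COL1A1 and COL1A2), while PTPRC, CD14, CD3E, VWF, CDH5, COL3A1 and PDGFRB lay below, and the summed signal of those 10 was 464 to 1732 on the control arrays and 364 to 1635 on the miR21 arrays. Nothing in the labels says that replicates were separate cultures, so every p-value refers to the scatter of these arrays alone, and that scatter may be technical.

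The cytosolic synthetase genes were higher with miR21 on average, and the excess came from replicate numbers 1 and 2. The log2 difference, miR21 minus control, was above 0 for 15 of the 15 cytosolic genes, against 48.8% of all genes tested. It ran from 0.0008 (FARSB) to 1.30 (WARS1), with a median of 0.43. With quantile normalization FARSB stood at -0.0082. Over all 12206 genes the median was -0.01. Within number 1 the cytosolic median was 0.56, within number 2 it was 0.53, and within number 3 it was 0.0027. A difference over 1 log2 unit in both numbers 1 and 2 was seen for 5 of the 15 (WARS1, CARS1, SARS1, AARS1 and YARS1), against 2.33% of all genes tested, and for none of the 15 in number 3. Past 0.5 in both numbers 1 and 2 there were 8 of the 15, against 9.77%. None of the 32 genes was over 1 log2 unit lower in both, against 3.51%. No cytosolic gene had groups that did not overlap, against 3.38% of all genes on the higher side. Without the miR21 array of number 3 there were 9 such genes, and without the control array of number 2 there were 3. Without control array 1 or 3 there was 1. Fewer arrays separate more easily, and the share over all genes was not computed with arrays left out. The 3.38% is therefore no background for those counts. Without the miR21 array of number 2 the cytosolic median was 0.25, and without both arrays of number 2 it was 0.40.

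**Figure D1:**
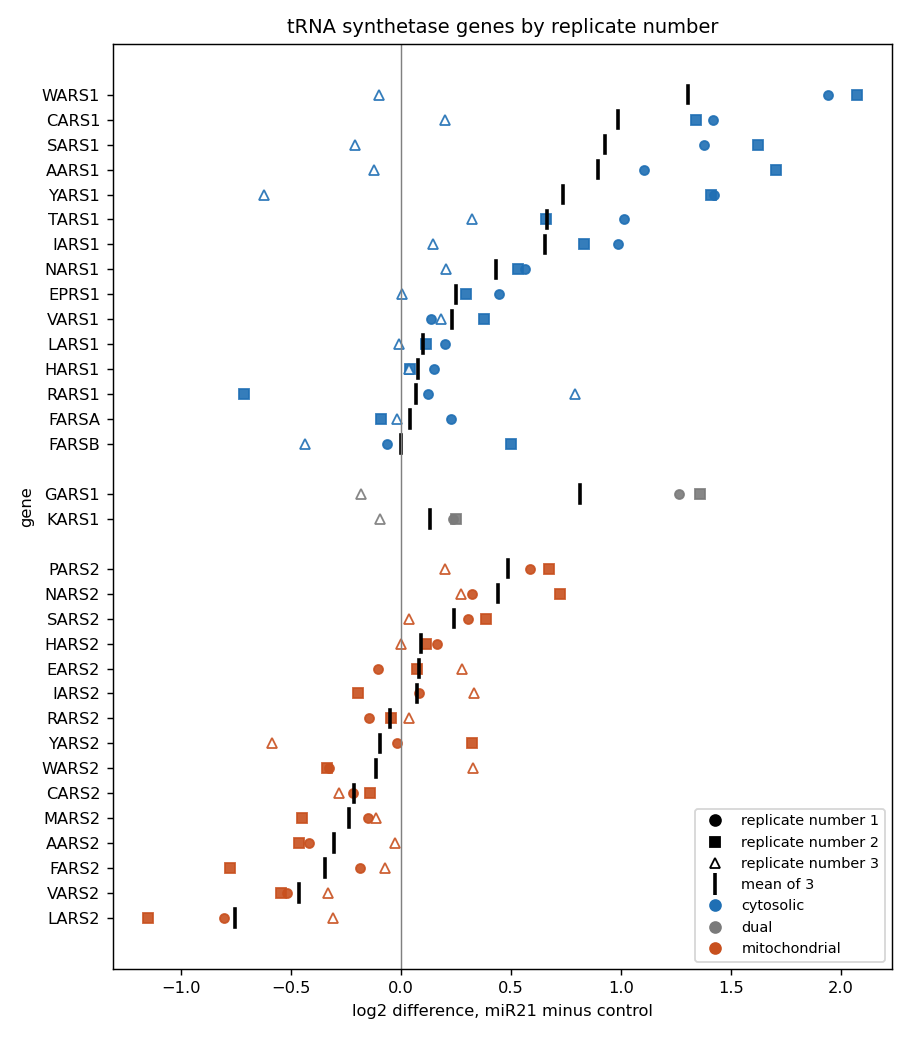
Log2 difference in signal, miR21 minus control (horizontal axis), for each of the 32 synthetase genes, ordered within the cytosolic, dual and mitochondrial class; symbols are the 3 replicate numbers and the bar is their mean. Number 3 lies near or left of 0 for WARS1, SARS1, AARS1 and YARS1, while numbers 1 and 2 lie beyond 1; LARS2 and VARS2 lie left of 0 in all 3.

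WARS1, the tryptophanyl-tRNA synthetase that is also known as an interferon-inducible gene, had the largest difference of the 32. Its signals for numbers 1, 2 and 3 were 2896, 6027 and 3572 with the control precursor and 11124, 25385 and 3327 with miR21. The miR21 arrays of numbers 1 and 2 stood above every control array, while that of number 3 lay between the control values. The signal was 3.84-fold and 4.21-fold higher in numbers 1 and 2 and differed by -0.10 on the log2 scale in number 3. The mean log2 difference was 1.30 (SE 0.70 in limma).

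CARS1, for cysteine, had signals of 4470, 10872 and 7395 with the control precursor and 11953, 27540 and 8482 with miR21. It was higher in all 3 numbers, by 1.42, 1.34 and 0.20 on the log2 scale, and the groups overlapped because control number 2 exceeded miR21 number 3. SARS1, for serine, gave 4140, 7046 and 10120 against 10754, 21693 and 8744, a difference of 1.38, 1.62 and -0.21. Its control array of number 3 was the highest of the controls, and the miR21 array of that number the lowest of its group. AARS1, which charges alanine, gave 4368, 7004 and 7221 against 9395, 22853 and 6628, with differences of 1.10, 1.71 and -0.12. YARS1, for tyrosine, gave 3748, 7582 and 8216 against 10050, 20147 and 5329, with differences of 1.42, 1.41 and -0.62, the lowest value of number 3 among the cytosolic genes.

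TARS1, IARS1 and NARS1, which charge threonine, isoleucine and asparagine, were higher in all 3 numbers by smaller amounts. TARS1 had signals of 3774, 6372 and 4769 against 7613, 10074 and 5960, and differed by 1.01, 0.66 and 0.32. IARS1 had 7684, 14427 and 12354 against 15239, 25683 and 13652, and differed by 0.99, 0.83 and 0.14. NARS1 had 10843, 8402 and 7347 against 16020, 12166 and 8463, and differed by 0.56, 0.53 and 0.20. In each of these genes the miR21 array of number 3 was the lowest of its group and overlapped the control range. EPRS1, whose product charges both glutamate and proline, was also above 0 in all 3 numbers (0.45, 0.30 and 0.0027), as were VARS1 for valine (0.13, 0.38 and 0.18) and HARS1 for histidine (0.15, 0.04 and 0.04). In all, 7 of the 15 cytosolic genes were higher in all 3 numbers, against 20.3% of all genes tested, and 0 were lower in all 3, against 20.9%.

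The other cytosolic genes had mean differences close to 0. FARSA and FARSB, the alpha and beta subunits of phenylalanyl-tRNA synthetase, had mean log2 differences of 0.04 and 0.0008. Both means joined opposite directions, with 0.23, -0.09 and -0.02 for FARSA and -0.06, 0.50 and -0.44 for FARSB in numbers 1, 2 and 3. LARS1, for leucine, differed by 0.10, with 0.20, 0.11 and -0.0088 in numbers 1, 2 and 3. RARS1, for arginine, differed by 0.12, -0.72 and 0.79, so that its mean of 0.07 did likewise. A gene in this class could therefore be more than 1 log2 unit higher in number 2 (WARS1) or over 0.5 lower (RARS1).

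The dual-use genes differed from each other. GARS1, for glycine, followed the cytosolic genes of larger difference, with signals of 6419, 10759 and 11057 with the control precursor and 15426, 27584 and 9756 with miR21. It was 2.40-fold and 2.56-fold higher in numbers 1 and 2 and differed by -0.18 on the log2 scale in number 3. KARS1, for lysine, gave 18728, 20998 and 25019 against 22085, 24984 and 23427. Its groups overlapped, with a mean difference of 0.13 (0.24, 0.25 and -0.09 within the numbers).

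**Figure D2:**
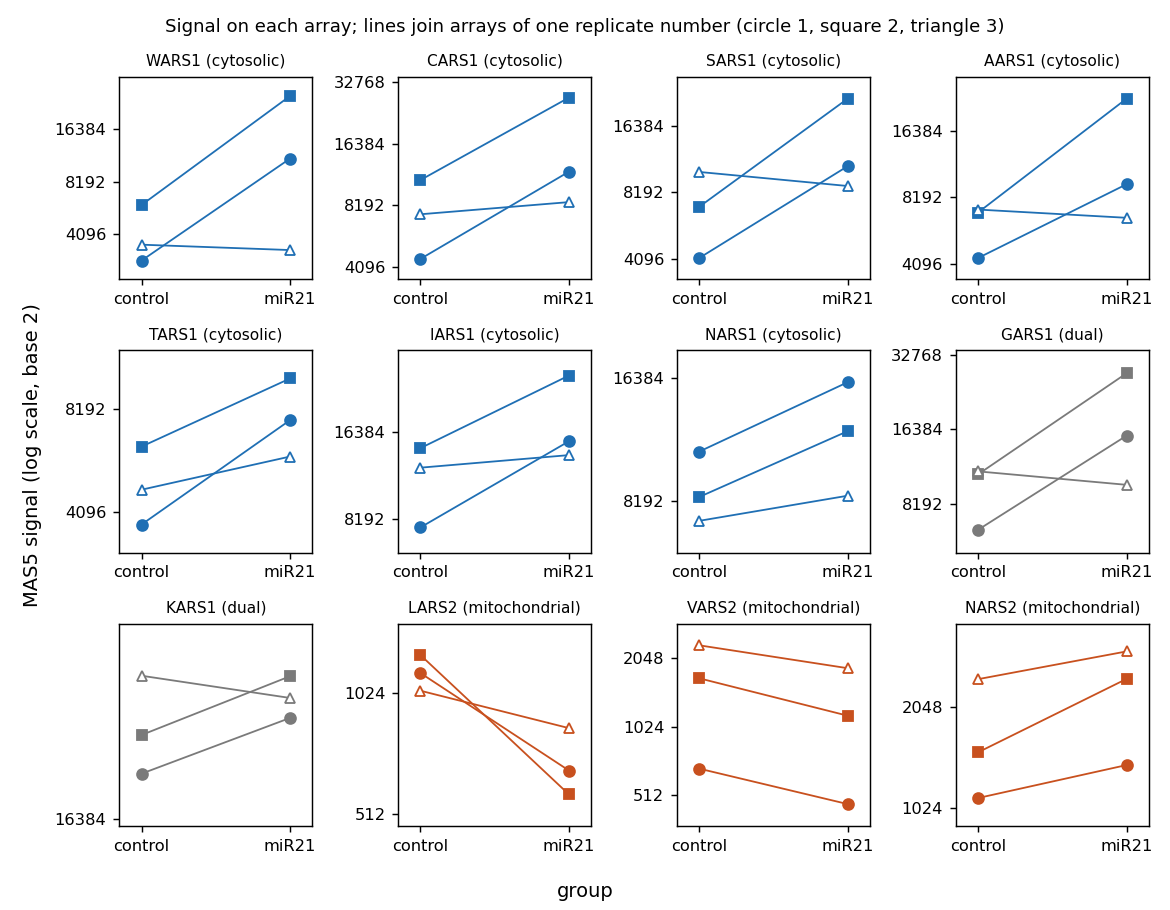
MAS5 signal on a log axis of base 2 (vertical) by group (horizontal) for 12 synthetase genes, with a line for each replicate number and a separate vertical range in each panel. For WARS1, SARS1, AARS1 and GARS1 the lines of numbers 1 and 2 climb while that of number 3 is slightly lower with miR21; for LARS2 the groups do not overlap.

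The mitochondrial synthetase genes did not share a direction. Of the 15, 6 had a mean difference above 0 and 9 below, with a range from -0.75 (LARS2) to 0.49 (PARS2) and a median of -0.10. That median turned to 0.0038 without the control array of number 2, to 0.08 without the miR21 array of number 1 and to 0.0044 with arrays centred on their medians. The median was -0.15, -0.14 and 0.0015 in numbers 1, 2 and 3. LARS2, the mitochondrial leucyl-tRNA synthetase, alone of the 32 genes had groups without overlap, against 3.27% of all genes on the lower side. With centred arrays its groups overlapped too. Without control array 1 or miR21 array 3 there were 3 mitochondrial genes lower without overlap. The share over all genes was not computed for those settings. The signals of LARS2 were 1145, 1270 and 1035 with the control precursor and 656, 572 and 836 with miR21. Every miR21 array was thus below every control array. The mean log2 difference was -0.75 (SE 0.29 in limma, adjusted p = 0.9999), a signal 1.69-fold lower, and the two-sided p of an exact permutation test was 0.1, the smallest that 3 arrays against 3 can give.

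VARS2, for mitochondrial valine, was lower within every number although the groups overlapped. Its signals were 670, 1672 and 2334 against 468, 1144 and 1851, and the differences were -0.52, -0.55 and -0.33. NARS2, for mitochondrial asparagine, was higher within every number, with 1097, 1499 and 2468 against 1374, 2473 and 2982 (0.32, 0.72 and 0.27). In both genes the control arrays alone spanned more than the difference between groups. PARS2, for mitochondrial proline, differed by 0.59, 0.67 and 0.20. SARS2 was likewise above 0 in each number (0.31, 0.38 and 0.03), as was HARS2 (0.17, 0.11 and 0.0015).

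On the lower side stood AARS2 for alanine, with 840, 1156 and 1102 against 628, 837 and 1081 (-0.42, -0.47 and -0.03). CARS2 for cysteine had 982, 1201 and 1656 against 843, 1090 and 1363 (-0.22, -0.14 and -0.28). FARS2 for phenylalanine differed by -0.35 on average and MARS2 for methionine by -0.24, both below 0 in every number. WARS2 for tryptophan had 784, 1037 and 846 against 624, 821 and 1063, lower in numbers 1 and 2 and higher in number 3. The mean differences of EARS2 (0.08), IARS2 (0.07), RARS2 (-0.05) and YARS2 (-0.10) were small and mixed in sign across numbers; with arrays centred on their medians RARS2 and YARS2 stood above 0 (0.0473 and 0.0044). In all, 6 of the 15 mitochondrial genes were lower in all 3 numbers and 4 were higher, against 20.9% and 20.3% of all genes.

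Set against each other, the cytosolic median exceeded the mitochondrial median by 0.53 on the log2 scale over all arrays. The excess was 0.71 in number 1, 0.67 in number 2 and 0.0012 in number 3, a mean of 0.46 ± 0.40 (SD, n = 3 numbers). Numbers 1 and 2 lay above that mean and number 3 next to 0. Without the miR21 array of number 3 the excess was 0.98, and without that of number 2 it was 0.34. Each of these leaves the control array of the same number without a partner. With both arrays of a number left out the excess was 0.37, 0.46 and 0.64 without numbers 1, 2 and 3.

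**Figure D3:**
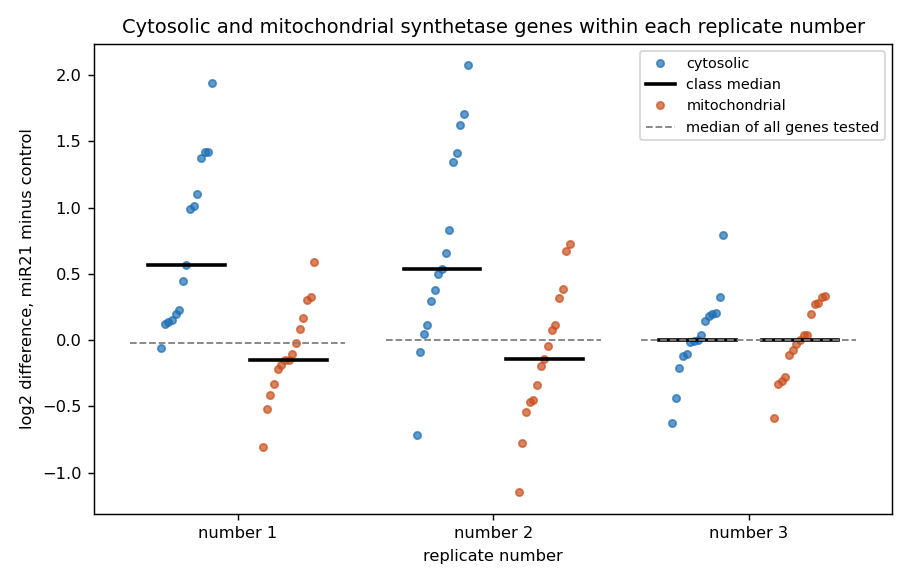
Log2 difference, miR21 minus control (vertical axis), of the 15 cytosolic and 15 mitochondrial genes within each replicate number (horizontal axis); dots are genes in rising order, bars are class medians and dashed lines the median of all 12206 genes. The cytosolic median is 0.56 and 0.53 in numbers 1 and 2, and both class medians lie at 0 in number 3.

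Pairing the enzymes by amino acid gave 15 comparisons of a cytosolic with a mitochondrial gene, in which EPRS1 and FARS2 each enter more than once. The cytosolic gene had the higher difference in 12 of them, with a median excess of 0.58. The excess was above 1 log2 unit for tryptophan (1.42), alanine (1.20) and cysteine (1.20). In number 3 alone it was -0.43 for tryptophan, -0.10 for alanine and 0.48 for cysteine. The median excess was 0.65 in number 1, 1.03 in number 2 and -0.07 in number 3, where 0 pairs exceeded 1. For tryptophan, alanine and cysteine the cytosolic gene was above 0 and the mitochondrial gene below 0 on average. For leucine the excess of 0.86 came from a low LARS2 rather than a high LARS1, and for valine (0.70) VARS1 and VARS2 lay on opposite sides of 0. Asparagine (-0.0063), histidine (-0.02) and proline (-0.24) showed no excess, and both genes of each of these pairs were above 0.

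Within the numbers, the cytosolic gene had the higher difference in 13 of the 15 pairs in number 1, 11 in number 2 and 6 in number 3. It did so in all 3 numbers for cysteine, leucine, valine and the alpha subunit pair of phenylalanine, 4 pairs in all. For proline it was the reverse in all 3. HARS1 and HARS2 are neighbouring genes of similar sequence, whose promoter windows in RefSeq share 184 bases on opposite strands. Their differences were close in every number (0.15 and 0.17, 0.04 and 0.11, 0.04 and 0.0015), and whether each probe set reads 1 of them alone was not tested.

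**Figure D4:**
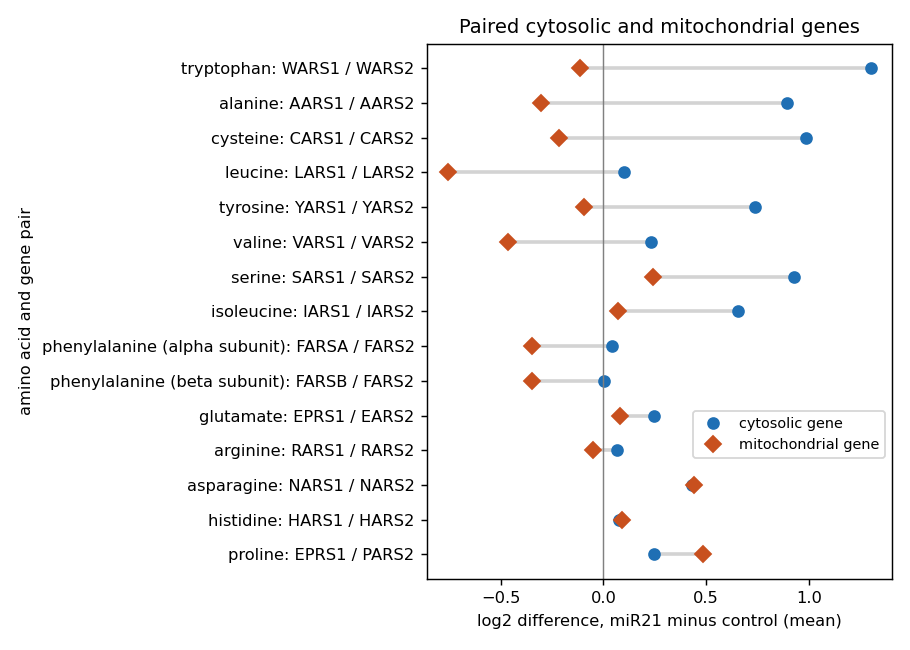
Mean log2 difference, miR21 minus control (horizontal axis), of the cytosolic gene (circle) and the mitochondrial gene (diamond) of each of 15 amino acid pairs (vertical axis), ordered by the gap between them. The gap is 1.42 for tryptophan and 1.20 for alanine and cysteine, and closes for asparagine and histidine.

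A second reading came from other probe sets of the same genes, of which 22 over 16 genes lay above the filter. In 18 of the 22 the mean difference had the sign of the brightest probe set. Another WARS1 probe set differed by 1.73, 1.85 and -0.04 in numbers 1, 2 and 3, and 2 others of CARS1 by 1.16 and 0.92 on average, all close to the values above. The other LARS2 probe set differed by -0.82, -0.58 and -0.38. The second SARS1 probe set, by contrast, differed by 0.67, 0.52 and 0.60 in numbers 1, 2 and 3. The brightest gave 1.38, 1.62 and -0.21, so a SARS1 difference over 1 in numbers 1 and 2 holds for the brightest only. Other LARS1 probe sets above the filter gave 1.35 and 0.59 in number 3, where the brightest gave -0.0088. Those of EPRS1 gave 0.45 and -0.03 there, where the brightest gave 0.0027. In number 3 those of CARS1 gave -0.05 and 0.03, where the brightest gave 0.20. CARS1 was thus higher in all 3 numbers with its brightest probe set, but not with every other one. The other TARS1 probe set, with a mean log2 signal of 6.32 against the filter of 6.03, differed by -0.26, 0.61 and 0.03. The brightest of TARS1 gave 1.01, 0.66 and 0.32. In number 3 the other probe sets of FARSA and YARS1 gave -0.24 and -0.22. For SARS1, LARS1, EPRS1, CARS1 and TARS1 the difference in number 3 thus depends on the probe set, and for TARS1 that in number 1 does too. The second YARS1 probe set differed by -0.14 on average and by -0.10 and -0.09 in numbers 1 and 2, so the YARS1 difference depends on the probe set. FARSA, EARS2 and RARS2 had the remaining probe sets of opposite sign, at -0.02, -0.20 and 0.0056.

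None of the 32 genes passed the test over the whole table. Limma without a block called 0 of 12206 genes (0%) at a Benjamini-Hochberg threshold of 0.05, and each of the 32 had an adjusted p of 0.9999. Before adjustment, 1 of the 32 was under 0.05 in that fit, LARS2, while 1.26% of all genes were so on the lower side (154 genes) and 1.18% on the higher side (144 genes). On simulated data this fit called none of the planted changes, so its lack of calls says little about the genes. Adding the replicate number as a block gave 4 called genes in limma (0.0328%), none of them a synthetase. The lowest adjusted p among the 32 was then 0.128, for CARS1 and TARS1.

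Before adjustment, 7 of the 15 cytosolic genes were under 0.05 in the block fit, all on the higher side, against 9.81% of all genes. Besides CARS1 and TARS1 these were IARS1, WARS1, NARS1, AARS1 and SARS1, with limma's adjusted p between 0.15 (IARS1) and 0.191 (SARS1). GARS1 was under 0.05 before adjustment as well (adjusted p = 0.195 in limma), and KARS1 was not (adjusted p = 0.654 in limma). Of the mitochondrial genes, 1 of 15 was under 0.05 on the higher side, NARS2 (adjusted p = 0.19 in limma). On the lower side there were 2 of 15, LARS2 (adjusted p = 0.141 in limma) and VARS2 (0.172), against 10.3% of all genes.

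Calls appeared when number 3 was left out. Without both arrays of number 3, limma with the block called 9 of the 15 cytosolic genes higher, against 15.9% of all genes, and 0 lower, against 16.9%. They were WARS1 (log2 difference 2.01, SE 0.14, adjusted p = 1.44e-17), SARS1, AARS1, YARS1, CARS1, IARS1, TARS1, NARS1 and EPRS1 (0.37, adjusted p = 0.0255). GARS1 was called as well (1.31, adjusted p = 1.31e-10). Of the mitochondrial genes NARS2 was called higher, and LARS2 (-0.98, adjusted p = 1.63e-05), VARS2 and AARS2 lower. These were 1 of 15 (6.67%) and 3 of 15 (20%), against the same 15.9% and 16.9% of all genes, so they do not stand out. That fit rests on 2 pairs of arrays, with 51.2 total degrees of freedom after shrinkage of the spread across genes, and over all alternatives the adjusted p of WARS1 ranged from 1.44e-17 to 1. Without number 1 the fit called 0.295% of all genes higher and 0.188% lower, without number 2 it called 0% in both directions, and neither held a synthetase.

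The promoter windows of all synthetase genes, several of which were higher together, were searched for the C/EBP-ATF letters TGATGNAA on both strands. RefSeq windows (GRCh38.p14, 250 bases before to 50 after each start site) were found for 27 of the 32 genes. The cytosolic genes without one were YARS1, VARS1 and LARS1, with log2 differences of 0.74, 0.23 and 0.10. The mitochondrial ones were AARS2 and VARS2 (-0.30 and -0.47). A match in any window of a gene stood in 5 of 12 cytosolic genes (41.7%), in GARS1 and in 1 of 13 mitochondrial genes (7.69%). The share was 2.65% of the tested genes with a window and 4.46% of all genes with a window. Counted by single windows it was 3.62%. CARS1, GARS1 and TARS1 each have another window, without these letters. The matches are shown with 10 bases on each side, turned so that all read in one direction, with the matching letters in capitals.
AARS1: ctaacttggcTGATGCAActgcgagaaa
CARS1: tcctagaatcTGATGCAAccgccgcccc
IARS1: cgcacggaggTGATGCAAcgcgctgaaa
NARS1: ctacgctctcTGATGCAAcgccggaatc
TARS1: ctggaccagcTGATGCAAtcgaaaggcg
GARS1: gctcggagcaTGATGAAAtcgccgcgta
YARS2: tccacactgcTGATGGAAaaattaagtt
The 5 cytosolic genes share the same letters throughout the match, while GARS1 and YARS2 each have another base at the free position N. Positions count -1 as the last base before the start site and 1 as the start, and refer to the first base of the match in the direction of the gene. In AARS1, GARS1, IARS1, CARS1 and TARS1, whose stretches are turned, that base pairs with the last capital shown. It lay at -197 in YARS2, -187 in AARS1, -33 in GARS1, -13 in IARS1, -2 in CARS1, 3 in TARS1 and 15 in NARS1. The median log2 difference of the 5 cytosolic genes with a match was 0.67, and that of the 7 without was 0.08. SARS1 and WARS1 have no match in their windows and stood at 0.93 and 1.30, so genes with and without the letters overlapped. A match is a description of the sequence and was not tested for binding.

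The whole windows of AARS1, CARS1 and IARS1 follow, read in the direction of the gene with the match in capitals, so that a match on the other strand appears as its reverse complement, beside that of LARS2, the mitochondrial gene with the lowest difference, which has none.
AARS1 (chr16:70289457-70289756, - strand): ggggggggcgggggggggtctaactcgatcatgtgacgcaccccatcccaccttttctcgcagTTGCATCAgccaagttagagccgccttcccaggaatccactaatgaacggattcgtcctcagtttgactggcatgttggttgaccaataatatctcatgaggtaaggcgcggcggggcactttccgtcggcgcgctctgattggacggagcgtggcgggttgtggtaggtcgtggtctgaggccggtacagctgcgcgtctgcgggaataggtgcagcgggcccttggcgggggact
CARS1 (chr11:3057374-3057673, - strand): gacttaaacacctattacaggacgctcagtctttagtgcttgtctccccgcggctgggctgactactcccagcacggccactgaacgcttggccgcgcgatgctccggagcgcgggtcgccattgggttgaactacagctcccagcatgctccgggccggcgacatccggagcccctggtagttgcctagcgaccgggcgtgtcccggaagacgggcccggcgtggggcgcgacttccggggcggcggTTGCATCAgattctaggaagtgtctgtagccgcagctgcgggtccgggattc
IARS1 (chr9:92293648-92293947, - strand): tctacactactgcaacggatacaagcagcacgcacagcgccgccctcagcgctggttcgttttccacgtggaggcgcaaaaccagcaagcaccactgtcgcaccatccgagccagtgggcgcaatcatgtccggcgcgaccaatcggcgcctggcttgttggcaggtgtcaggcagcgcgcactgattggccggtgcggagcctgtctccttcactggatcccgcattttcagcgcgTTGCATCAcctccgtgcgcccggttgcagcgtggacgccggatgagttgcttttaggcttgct
LARS2 (chr3:45388326-45388625, + strand): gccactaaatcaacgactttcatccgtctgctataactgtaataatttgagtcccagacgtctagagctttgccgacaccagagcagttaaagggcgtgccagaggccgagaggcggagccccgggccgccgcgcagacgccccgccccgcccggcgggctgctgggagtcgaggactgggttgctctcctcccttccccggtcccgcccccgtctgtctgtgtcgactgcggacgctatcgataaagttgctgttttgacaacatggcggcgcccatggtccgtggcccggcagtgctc
The site of the factor NRF1 (GCGC and TGCGC with any 1 base between them), searched on both strands because many mitochondrial genes carry it, stood in 3 of 12 cytosolic genes (25%) and 3 of 13 mitochondrial genes (23.1%), against 13.5% of the tested genes with a window. The mitochondrial genes with this site were MARS2, IARS2 and PARS2, with log2 differences of -0.24, 0.07 and 0.49, and the cytosolic ones SARS1, TARS1 and FARSB.

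**Figure D5:**
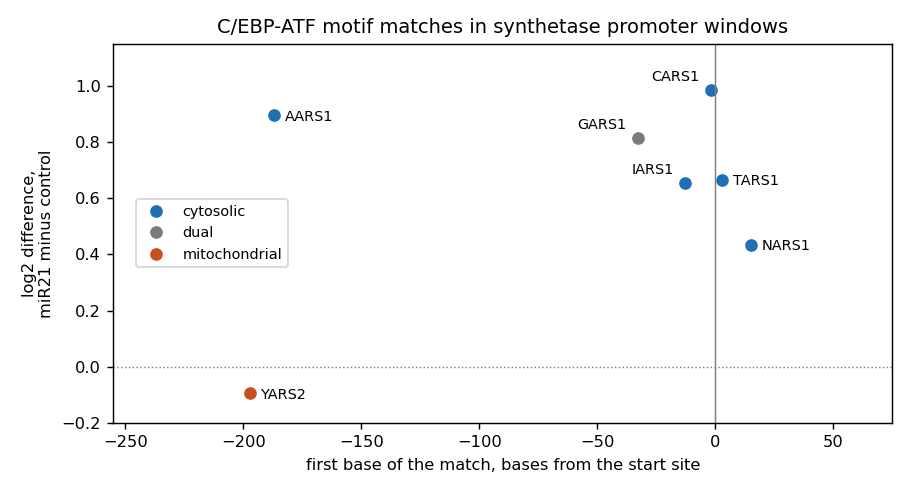
Mean log2 difference, miR21 minus control (vertical axis), against the position of each C/EBP-ATF match relative to the start site in bases (horizontal axis), for the 7 synthetase genes with a match. The position is that of the first base of the match in the direction of the gene. The 5 cytosolic genes and GARS1 lie between 0.43 and 0.99, and the mitochondrial gene YARS2 at -0.10.

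Other genes of tRNA charging and of the amino acid response give the setting. The amino acid response list holds ATF4 itself and enzymes and transporters under its control. Of its 25 measured genes 24 were above 0, against 48.8% of all genes tested, and ALDH18A1 stood at -0.07. The median of the 25 genes was 0.83, with 1.27, 1.25 and 0.03 in numbers 1, 2 and 3. With the block 20 of them were under 0.05 in limma before adjustment, all on the higher side (80% of the list, against 9.81% of all genes), and 0 were called. The cystine transporter gene SLC7A11 differed by 1.12, the mTORC1 inhibitor gene DDIT4 by 1.83, and the transcription factor genes CEBPB and DDIT3 by 1.00 and 1.87. Of 21 genes of this list with a promoter window, 6 (28.6%) held the C/EBP-ATF letters.

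Among the 6 measured genes of a list of other synthetases and synthetase partners, 5 were above 0, against 48.8% of all genes tested. TARS3, a synthetase gene of that list, stood at 0.28. XPOT, which exports tRNA from the nucleus, differed by 0.47 and AIMP1, a scaffold of the multi-synthetase complex, by 0.53. SEPSECS, of selenocysteine synthesis, stood at 0.60 and its partner PSTK at -0.44. The 21 measured genes of mitochondrial tRNA processing, charging and translation were split, 10 above and 11 below 0, with GFM1, an elongation factor, at 0.49, GATC, a subunit of the glutamyl-tRNA amidotransferase, at 0.40, the tRNA-processing endonuclease ELAC2 at -0.56 and the tRNA-modifying GTPBP3 at -1.14. Of the 7 cytosolic elongation factor genes 3 were above 0: EIF5A2 stood at 1.28 with 1.34, 1.38 and 1.10 in the 3 numbers, EEF2K, the kinase of EEF2, at -0.47, EIF5A at -0.29 and EEF1A2 at 0.18. None of these genes passed either fit over the whole table.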

How the data were processed

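The data are 6 arrays (U133 Plus 2.0, 54675 probe sets). The deposited values are linear intensity signals; MAS5 is the tool listed in the submitters' processing notes, and its version is not stated there. Probe sets other than controls numbered 54613: 41091 carry 1 gene in the platform annotation, 11721 carry none, and 1801 carry several and were not used. A gene was read through its brightest single-gene probe set (mean log2), and kept where that was at or above 6.03, the median over probe sets. No pseudocount was added. Groups were compared with limma 3.58.1 under R 4.3.3, using moderated variances with a trend over 12206 genes and Benjamini-Hochberg adjustment. Alternatives were quantile normalization, median centring, 16 added to signals, other filters, no trend, array weights, the mean of probe sets, a replicate block and arrays left out. Both fits were tested on simulated data with arrays of the same number alike. The fit without a block recovered none of the planted changes at any size tried. The block fit recovered most of the larger ones and a minority of the smallest. Each planted change was equal in every number, and the added noise followed the mean signal rather than each gene's own spread. Recovery where the numbers disagree, as for many synthetase genes here, was not tested. Same-numbered arrays, paired by the sample titles, had deviations from their group means that correlated at 0.899, 0.638 and 0.635. Control 3 with miR21 2 correlated at 0.411 and control 2 with miR21 3 at 0.283, while number 1 with any other number was negative. Deviations within a group sum to 0, so these values are not independent. The genes, lists, motifs and tests were chosen with earlier results of these data known. Signals of each array are given for genes without overlap, those of lowest p under the block, dual genes and pairs over 1 log2 unit apart; YARS1 was added after its values were seen. Of each other list the genes of lowest p under the block are named; genes of the lists without a single-gene probe set were not analysed here. The number of arrays limits the precision.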

Additional observations from a re-analysis of the deposited data

How the results depend on the processing

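The excess of the cytosolic over the mitochondrial median kept its sign under quantile normalization, median centring, 16 added to each signal, the mean of all probe sets, KARS1 and GARS1 counted as cytosolic, and every array left out. It lay between 0.34 and 0.98 when arrays were left out, the latter without miR21 replicate 3, the former without miR21 replicate 2, and the cytosolic median between 0.25 and 0.67. With both arrays of a number left out the excess lay between 0.37 and 0.64, and the cytosolic median between 0.37 and 0.55. The mitochondrial median lay between -0.3028 and 0.0794 (-0.0042 without both arrays of number 1), and at 0.0044 with median centring, which moved the median of all genes from -0.01 to 0.09. The count of genes called was 0 except with the replicate block (4) and 2 of the fits that left arrays out, and ran from 0 to 4004 over the fits with arrays left out; 59 were called without both arrays of number 1 and 4004 without those of number 3. The replicate block changed no call of a synthetase gene. Cytosolic genes higher without overlap numbered 0 to 9 with arrays left out (9 without miR21 replicate 3, 3 without control replicate 2). Mitochondrial genes lower without overlap numbered 1 to 3 with arrays left out, and 0 with median centring. The share of all genes without overlap was not computed for these settings. None of the 32 single differences was called, except 14 without both arrays of number 3. In that fit 15.9% of all genes were called higher and 16.9% lower. Small ones turned sign: with array weights FARSA (-0.0618), RARS1 (-0.47), IARS2 (-0.12) and YARS2 (0.17); with quantile normalization FARSB (-0.0082); with the mean of all probe sets FARSB (-0.0309), LARS1 (-0.11), VARS1 (-0.25) and WARS2 (0.26); with median centring RARS2 (0.0473) and YARS2 (0.0044). With arrays left out, signs turned for EPRS1 (-0.18 to 0.58), FARSA (-0.35 to 0.33), FARSB (-0.41 to 0.50), HARS1 (-0.23 to 0.35), RARS1 (-0.30 to 0.46, and between -0.2122 and 0.4302 with single arrays left out), VARS1 (-0.12 to 0.63), EARS2 (-0.0152 to 0.21), HARS2 (-0.23 to 0.38), IARS2 (-0.22 to 0.36), RARS2 (-0.42 to 0.36), VARS2 (-0.99 to 0.0794), WARS2 (-0.33 to 0.0817) and YARS2 (-0.36 to 0.17). With both arrays of a number left out and the replicate block, values of the other sign included FARSA (-0.054) without number 1, and EARS2 (-0.0152), IARS2 (-0.0577) and YARS2 (0.1506) without number 3. EPRS1, HARS1, VARS1, HARS2, RARS2, VARS2 and WARS2 kept their sign with both arrays of any number left out. Among the fits with arrays left out, they turned only where a single array was missing and its same-numbered partner stayed. VARS2, for example, stood at -0.44, -0.43 and -0.53 without numbers 1, 2 and 3. The cause of these shifts was not tested.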
